A study of Mus musculus with 2 samples.

Results

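The cells described here are cardiac macrophages that carried RNA of the chemokine receptor gene Ccr2 and little RNA of the resident macrophage genes Lyve1, Folr2 and Timd4. They were picked barcode by barcode from 2 single-cell libraries of sorted CD45+ heart cells, and 727 of 19916 barcodes met every condition: 270 of 11941 in the sham library and 457 of 7975 in the library from transverse aortic constriction (TAC), a surgical narrowing of the aorta that overloads the left ventricle with pressure. Both libraries came from wild type C57BL/6 mice of 10 weeks, with 6 mice in each group, and the deposited barcodes do not say which mouse or which droplet well a cell came from. Each group is therefore 1 library. No test between the groups was possible, no p-value is given, and every interval below covers counting error only.

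A barcode was kept when it had at least 300 detected genes and at most 10% of its unique molecular identifiers (UMIs, each standing for 1 captured RNA molecule) from mitochondrial genes. Per 10000 UMIs, a member had at least 40 UMIs of C1qa, C1qb and C1qc together, under 10 of Lyve1, Folr2 and Timd4 together, and under 50 of S100a8 and S100a9 together. It had at least 1 raw UMI of Ccr2, under 3 of the T cell genes Cd3d, Cd3e and Cd3g, under 3 of the cell cycle genes Mki67, Top2a and Birc5, under 3 of the stress genes Gdf15 and Areg, under 3 of Hmga2 and under 2 of Cd209a. These measured values chose the members, so the levels of those genes are given as a description only.

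CCR2 is the receptor for the monocyte chemokines CCL2, CCL7 and CCL12, and it draws classical monocytes out of the bone marrow and into inflamed tissue. CCL8 is counted among its ligands here, and its action on mouse CCR2 was not tested. In the mouse heart, macrophages that carry CCR2 are replenished from blood monocytes, whereas those that carry LYVE1, FOLR2 and TIMD4 mostly maintain themselves in the tissue. C1q, the recognition protein of the classical complement pathway, is made in bulk by tissue macrophages and little by monocytes, and the class II proteins of the major histocompatibility complex (MHC) present antigen to CD4+ T cells.

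Interferon-inducible GTPase genes were among those with the highest ratios in TAC members and heat-shock genes among those with the lowest, so promoters of both groups are shown. The windows are the 250 bases before the RefSeq gene start on GRCm38.p6, written 5′ to 3′ on the gene's strand. Capitals mark 2 copies of TTTC with any 2 bases between them, the core of an interferon-stimulated response element, on either strand in the first 3 (GAAA on the other strand), and GAANNTTC, an inverted pair of heat-shock element units, in the last 2. The windows lie at chr11:58199306-58199555 on the plus strand for Igtp, chr3:142530086-142530335 on the plus strand for Gbp7, chr3:142559794-142560043 on the plus strand for Gbp3, chr17:34972157-34972406 on the minus strand for Hspa1a and chr5:135887669-135887918 on the plus strand for Hspb1.
Igtp: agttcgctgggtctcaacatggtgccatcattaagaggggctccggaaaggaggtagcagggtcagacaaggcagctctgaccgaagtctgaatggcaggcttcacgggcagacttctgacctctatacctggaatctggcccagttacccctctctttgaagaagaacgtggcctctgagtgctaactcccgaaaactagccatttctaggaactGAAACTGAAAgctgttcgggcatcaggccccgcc
Gbp7: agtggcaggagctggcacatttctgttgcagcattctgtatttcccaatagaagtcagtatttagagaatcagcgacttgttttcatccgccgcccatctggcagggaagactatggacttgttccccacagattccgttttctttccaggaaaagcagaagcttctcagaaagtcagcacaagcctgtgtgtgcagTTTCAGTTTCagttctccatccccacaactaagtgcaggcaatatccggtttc
Gbp3: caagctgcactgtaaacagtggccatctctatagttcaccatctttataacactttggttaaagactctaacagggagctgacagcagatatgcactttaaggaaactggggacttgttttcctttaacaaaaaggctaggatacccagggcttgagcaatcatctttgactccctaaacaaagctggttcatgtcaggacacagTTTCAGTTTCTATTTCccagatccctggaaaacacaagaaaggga
Hspa1a: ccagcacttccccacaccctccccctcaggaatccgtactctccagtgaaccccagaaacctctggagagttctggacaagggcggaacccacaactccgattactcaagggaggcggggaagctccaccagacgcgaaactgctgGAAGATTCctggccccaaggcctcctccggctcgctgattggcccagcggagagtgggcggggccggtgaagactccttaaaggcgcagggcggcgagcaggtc
Hspb1: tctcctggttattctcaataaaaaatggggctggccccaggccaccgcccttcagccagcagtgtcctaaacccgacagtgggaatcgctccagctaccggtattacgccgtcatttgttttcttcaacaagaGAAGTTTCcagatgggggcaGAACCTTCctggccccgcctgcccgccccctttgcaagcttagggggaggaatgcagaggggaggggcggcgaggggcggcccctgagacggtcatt
The pair of TTTC copies was found in the windows of 10 of 10 guanylate-binding and immunity-related GTPase genes that have a window (any window of a gene with several starts, of which the first is shown for Gbp3), against 3.46% of the 27025 genes with one. It was found in 11 of 25 other interferon-stimulated genes, 1 of 19 resident macrophage genes and 0 of 10 heat-shock genes. TTCNNNGAA, the core of a gamma-activated site, was found in 6 of the 10 GTPase genes and 4 of the 25 other interferon-stimulated genes, against 8.13% of genes. GAANNTTC was found in 6 of 10 heat-shock genes, against 7.73% of genes, and 1 of 10 GTPase genes. A match is a description of letters in these windows and was not tested for binding.

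The gates removed cells step by step. Of 4169 kept sham barcodes and 5601 kept TAC barcodes, 3540 and 3670 reached the C1q limit, and 1114 and 2373 of those were low in the resident genes. The S100a8 and S100a9 limit left 1068 and 2041, and the Ccr2 limit left 388 and 763. The T cell genes left 368 and 683, the cell cycle genes 333 and 528, Gdf15 and Areg 278 and 463, Hmga2 277 and 463, and Cd209a the 270 and 457 members. No barcode sequence was shared between the sham and TAC members, against 35 shared over all barcodes.

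Members made up a larger share of the TAC library. They were 6.48% of kept sham barcodes (exact 95% interval 5.75 to 7.27%) and 8.16% of kept TAC barcodes (7.46 to 8.91%), a ratio of 1.26 (1.08 to 1.47). Among C1q-positive barcodes that met the gates other than Ccr2 and the resident genes, they were 10.1% of 2663 in sham (9.02 to 11.3%) and 20.7% of 2203 in TAC (19.1 to 22.5%), a ratio of 2.05 (1.76 to 2.39). Both shares depended on the mitochondrial limit. At a limit of 5%, 13 sham and 293 TAC members remained, and the log2 ratio of the share of kept barcodes turned from 0.33 to -0.34, and that of the share of macrophages from 1.03 to -0.13. Leaving out members with 3 or more UMIs of another cell type's markers left 121 sham and 107 TAC members and turned the first ratio to -0.60. Recovery of the cells through digestion and sorting cannot be told apart from their number in the heart.

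The members differed in depth and RNA quality between the libraries. Their median was 9687 UMIs and 2403 genes in sham and 14371 UMIs and 2972 genes in TAC, with summed totals of 3083873 and 7102409 UMIs. Mitochondrial genes held 7.37% of the summed sham UMIs and 4.37% of the summed TAC UMIs. Fibroblast-like barcodes had at least 40 UMIs per 10000 of Col1a1, Col1a2, Col3a1 and Dcn together and no UMI of Ptprc. They serve below as a comparison for RNA shed by other cells. These barcodes also hold RNA of their own, so a level in them is not a measure of shed RNA alone. There were 178 of them in sham and 207 in TAC, with medians of 8576.5 and 14144 UMIs, close to those of the members.

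Some barcodes lay just inside and just outside the gates. They were counted within a set distance of each limit, which itself fixes how close their values are. In sham, 13 members had 40 to 50 C1q UMIs per 10000, with a median of 45.8, and 5 otherwise like barcodes lay within 10 below the limit, with a median of 37.7. In TAC the counts were 7 and 10. Within 2 UMIs per 10000 of the resident gene limit, 24 sham members lay below it, with a median of 8.84, and 22 sham barcodes lay at or above it, with a median of 10.9. The corresponding TAC counts were 12 and 9. Ccr2 was a single UMI in 44 sham and 102 TAC members and 4 or more UMIs in 158 and 251.

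C1qa is part of the C1q limit that chose the members, so its level is a description only. It stood at 4160 CPM (UMIs of the gene per 1000000 UMIs summed over the members) in sham and 5772 in TAC. Macrophage markers outside the rule were present. Adgre1, which encodes the macrophage surface protein F4/80, was at 256 CPM in sham and 228 in TAC, and Cd68, a lysosomal protein of phagocytes, at 305 and 356. Csf1r, the receptor for macrophage colony-stimulating factor, was at 477 and 278 CPM and Mertk, a receptor for dying cells, at 33.7 and 24.1. Ccr2, which the rule also required, was at 505.5 CPM in sham and 370.2 in TAC. Of the dendritic cell markers, Flt3 was at 4.86 and 1.83 CPM and Zbtb46 at 3.24 and 0.845. Xcr1 and Clec9a, also among these markers, were higher in TAC and Ccr7 was lower, with values given below.

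RNA of other cell types was present in the members of both libraries. For 5 of the 6 marker lists more members crossed a raw count of 3 UMIs in the deeper TAC library, and for the cardiomyocyte list fewer did. Over 14 neutrophil markers the summed level was 53.2 CPM in sham and 157 in TAC, and 4.81% and 18.2% of members had 3 or more UMIs. In sham 3 of the 14, Ngp, Camp and Ltf, were at 0. Summed fibroblast markers were at 472 and 435 CPM with 17.0% and 44.0% of members at 3 or more UMIs, T and NK cell markers at 193 and 121 CPM with 7.04% and 17.7%, and B cell markers at 335 and 168 CPM with 33.3% and 38.7%. Endothelial markers were at 290 and 169 CPM with 7.41% and 9.85% of members, and cardiomyocyte markers at 146 and 98.3 CPM with 17.0% and 13.1%. S100a9, limited by the rule, was at 30.2 CPM in sham and 178 in TAC, while fibroblast-like barcodes had 7.03 and 110 CPM. The part of such RNA in the differences below was not tested, and the value in fibroblast-like barcodes is given beside some of them.

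Sham and TAC members were compared over 8494 genes with at least 50 UMIs in both libraries together. Of these, 1078 (12.7%) were at least 1.5-fold higher in TAC members and 1366 (16.1%) at least 1.5-fold lower, the size used here to call a gene higher or lower. The median log2 ratio over all tested genes was -0.006, with 0.5 UMI added to each count. The whole counting interval lay past 1.5-fold for 418 and 472 genes. With every cell thinned to 5000 UMIs before the gates, which left 251 sham and 406 TAC members and fewer counts per gene, 924 genes were higher and 647 lower. Gene counts and list medians below are read against these percentages.

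**Figure D1:**
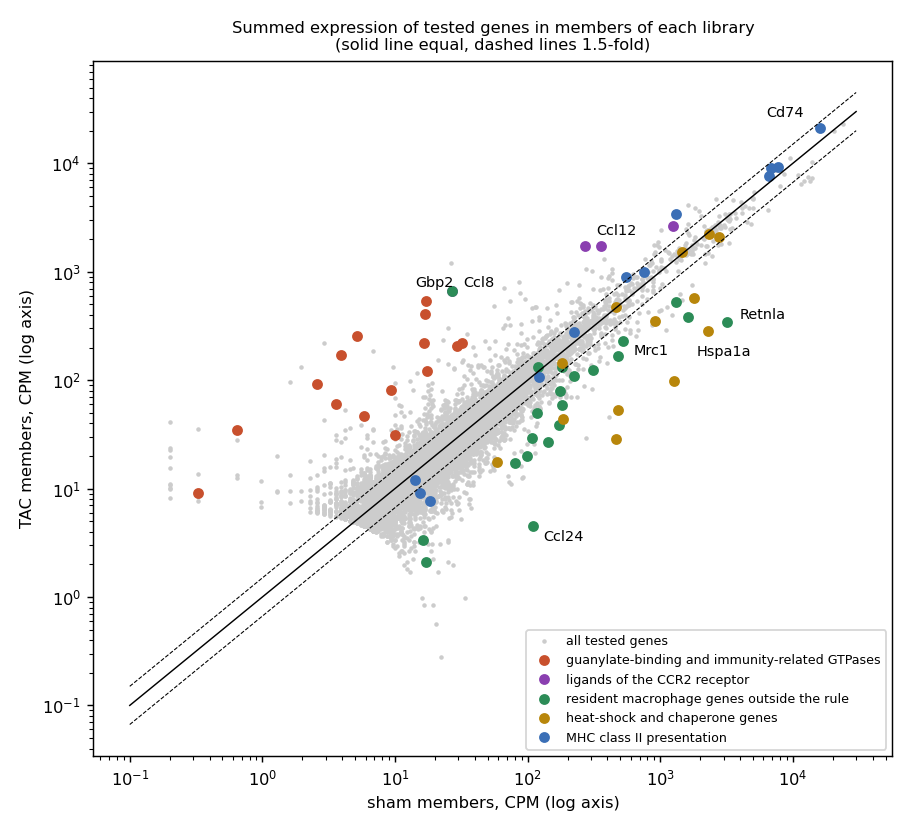
Each grey dot is 1 tested gene, with its level in sham members on the x axis and in TAC members on the y axis (CPM, both log axes), and coloured dots mark 5 gene lists. The GTPase genes lie above the upper dashed line of 1.5-fold, Ccl8 at 26.9 against 669 CPM among the highest, while Retnla at 3206 against 342 CPM and Hspa1a at 2276 against 286 CPM lie below the lower one.

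Guanylate-binding and immunity-related GTPases, interferon-induced proteins that attack the vacuoles of intracellular pathogens, were higher throughout. All 15 tested genes of the list rose past 1.5-fold, with a median log2 ratio of 4.0, and their summed level went from 171 CPM in sham to 2499 in TAC. Gbp2 rose from 17.2 to 537 CPM (31.2-fold, 95% interval 23.8 to 41.8) and Gbp2b from 5.19 to 254 CPM (49.0-fold). Gbp4 rose from 3.89 to 169 CPM, and Igtp, an immunity-related GTPase whose promoter is shown above, from 16.5 to 220 CPM (13.3-fold, 10.0 to 17.9). Gbp7 rose from 32.1 to 222 CPM and Gbp3 from 29.2 to 207 CPM. Irgm2 had the smallest ratio of the list, from 10.1 to 31.0 CPM (3.08-fold). Gbp10, with 0 UMIs in sham and 47 in TAC, had too few for the comparison. Members of this family are similar in sequence, and reads that match several of them may have been split or dropped.

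The rise spread over most TAC members rather than resting on a few. The summed GTPase level per cell had a median of 1.13 UMIs per 10000 in sham (10th to 90th percentile of cells 0 to 4.13) and 20.6 in TAC (4.51 to 49.1), so the 10th percentile of TAC cells lay above the 90th percentile of sham cells. With every cell thinned to 3000 UMIs, Gbp2 had at least 1 UMI in 4.09% of 269 sham members (2.06 to 7.2%) and 64.7% of 456 TAC members (60.1 to 69.1%), where 1 shallower member was left out in each library. Unthinned, the shares were 13% and 89.3%. Fibroblast-like barcodes, thinned alike, had Gbp2 in 10.8% and 65.4%, so the share in members was not above that of fibroblast-like barcodes. Summed over the list, fibroblast-like barcodes went from 200 to 4558 CPM, and their TAC level was above that of TAC members. Igtp, for example, was at 509 CPM in TAC fibroblast-like barcodes and 220 CPM in TAC members. Gbp2b was unlike the list: fibroblast-like barcodes had 0 CPM in sham and 2.69 CPM in TAC, against 254 CPM in TAC members.

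The same direction was measured in the other macrophages. Gbp2 went from 20.4 to 694 CPM in like barcodes with no Ccr2 UMI, from 22.2 to 660 CPM in macrophages with resident genes, and from 97.8 to 1235 CPM in Ccr2-positive Ly6c2-positive barcodes low in C1q. The list's median log2 ratio was 4.11 in the first and 4.30 in the second of these. The rise in the members was therefore not measured to be larger than elsewhere, and the difference between classes was not tested.

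Other interferon-stimulated genes rose with them. Of 35 tested, 29 rose past 1.5-fold and none fell past it, with a median log2 ratio of 1.66 and a summed level of 2068 CPM in sham and 8250 in TAC. Irf7, a transcription factor that amplifies interferon signals, rose from 34.7 to 264 CPM (7.62-fold, 6.27 to 9.35). Isg15, a ubiquitin-like protein, rose from 74.3 to 537 CPM and Zbp1, a nucleic acid sensor, from 25.3 to 300 CPM. Ly6a, a surface antigen, rose from 26.3 to 1200 CPM (45.7-fold, 36.7 to 57.6), although fibroblast-like barcodes held 628 and 4120 CPM of it. The 6 that were not past the limit were Oas2 at 29.5 and 19.99 CPM, Ddx58, Ifih1, Irf9, Slfn5 and Parp14.

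Among TAC members, cells with more GTPase RNA also had more RNA of the other interferon-stimulated genes. Spearman's rho over thinned members was 0.45 across 456 TAC cells and 0.15 across 269 sham cells. The cells of each value share a library, and GTPase counts per sham cell were near 0, so both are descriptions.

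Cxcl9, Il18bp and Serpina3g had the 3 highest ratios. Cxcl9, a chemokine that attracts activated T cells, rose from 2.92 to 222 CPM (76.1-fold, 39.98 to 167), and 1.11% of sham and 32.6% of TAC members had a UMI. The Cxcl9 ratio rested on 9 sham UMIs. Its log2 value of 6.17 dropped to 3.04 with the mitochondrial limit at 25%, and reached 7.45 with Ccr2 of at least 2 UMIs. Fibroblast-like barcodes had 0.639 and 65.7 CPM of Cxcl9. It rose from 40.7 to 496 CPM in like barcodes with no Ccr2 UMI, and from 9.58 to 105 CPM in macrophages with resident genes. Ccr2-positive Ly6c2-positive barcodes low in C1q showed no such rise, holding 279 CPM under sham against 253 CPM under TAC. Il18bp, a secreted decoy for interleukin-18, rose from 1.95 to 132 CPM (67.7-fold) and Serpina3g, a protease inhibitor, from 1.62 to 95.2 CPM (58.7-fold). The remaining genes of the highest 15 were Gbp8, Fam26f, Ccl8, Tgtp2 at 16.7-fold, Ch25h at 13.6-fold, the immunity-related GTPase Iigp1 at 24.0-fold, and Gbp2, Gbp2b, Gbp4, Igtp, Ly6a and Zbp1 as above. Below these 15, Fcgr4, a receptor for the Fc part of IgG, rose from 65.8 to 709 CPM (10.8-fold, 9.35 to 12.4), with a UMI in 43.3% and 96.7% of members and 0.639 and 5.38 CPM in fibroblast-like barcodes. Fcgr1, the high-affinity IgG receptor, rose from 114 to 476 CPM.

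**Figure D2:**
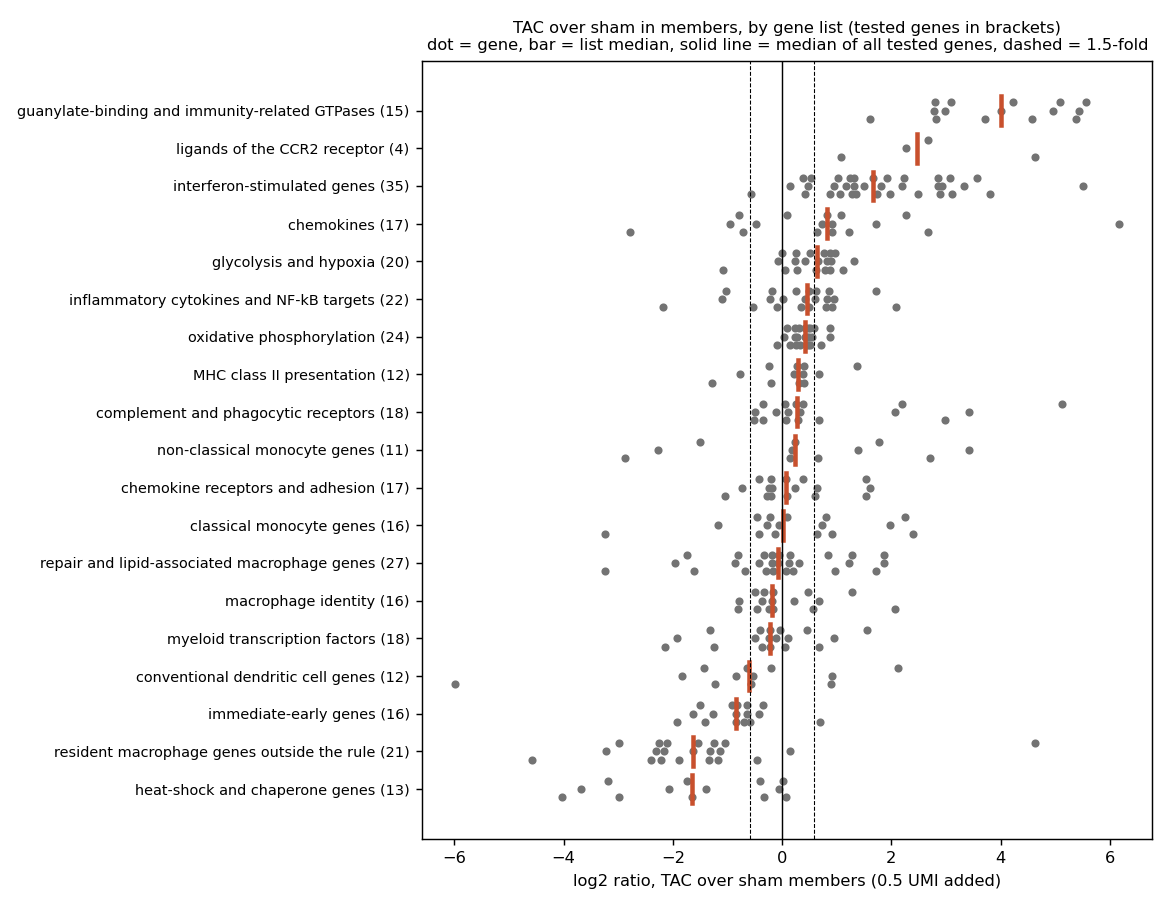
Each dot is 1 tested gene placed by its log2 ratio of TAC over sham members on the x axis, with 1 gene list on each line of the y axis and the number of tested genes in brackets. The orange bars are list medians, from 4.0 for the GTPase genes to -1.65 for the heat-shock genes, against a median of -0.006 over all tested genes.

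The ligands of CCR2 were also higher in TAC members, which carry the receptor. All 4 genes counted as CCR2 ligands rose. Ccl2 went from 1258 to 2647 CPM (2.10-fold, 2.03 to 2.18) and Ccl7 from 355 to 1712 CPM (4.82-fold, 4.53 to 5.13). Ccl12 went from 273 to 1739 CPM (6.38-fold, 5.95 to 6.84) and Ccl8 from 26.9 to 669 CPM (24.9-fold, 20.02 to 31.3). The 4 genes lie close together in the order Ccl2, Ccl7, Ccl12, Ccl8 on the plus strand of chromosome 11, from chr11:82035571-82037453 for Ccl2 to chr11:82115185-82116799 for Ccl8 (GRCm38). Thinned, Ccl12 was found in 26.4% of sham and 72.4% of TAC members, against 0% and 6.34% of fibroblast-like barcodes, where 0 of 176 sham barcodes has an exact upper limit of 2.07%. Ccl8 was unevenly held, with 81.3% of its TAC UMIs in the 5% of members with the most. Members were not the class with the most ligand RNA: Ccl12 was at 2788 CPM in like TAC barcodes with no Ccr2 UMI and Ccl8 at 3581 CPM in TAC macrophages with resident genes.

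Among the other chemokines the members diverged. Of 17 tested genes on the chemokine list, which holds 3 of the CCR2 ligands, 11 rose and 4 fell. Ccl3 and Ccl4, inflammatory chemokines, rose from 909 to 1505 CPM and from 2653 to 4689 CPM, Cxcl10 from 369 to 698 CPM and Cxcl16 from 243 to 568 CPM. Ccl9 fell from 666 to 342 CPM, Cxcl1, a neutrophil attractant, from 384 to 221 CPM, Cxcl3 from 58.4 to 35.6 CPM and Ccl22 from 21.7 to 3.10 CPM. Cxcl2, another neutrophil attractant, was at 5050 CPM in sham and 5404 in TAC. The receptor gene Ccr1 rose from 45.7 to 132 CPM and the adhesion subunit Itgb7 from 18.8 to 55.1 CPM, whereas Cxcr4, which holds leukocytes in bone marrow, fell from 155 to 75.1 CPM and Icam1 from 141 to 84.5 CPM. Those were part of 5 higher and 2 lower genes among 17 receptors and adhesion molecules.

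The rule limited 3 resident genes, and resident macrophage genes outside the rule fell in TAC members as well. Of 21 tested, 18 fell past 1.5-fold, with a median log2 ratio of -1.63 and a summed level of 9255 CPM in sham and 3140 in TAC. Retnla alone made up 3206 and 342 CPM of these sums, with a UMI in 35.9% of sham and 4.81% of TAC members. Mrc1, the mannose receptor CD206, fell from 523 to 231 CPM (2.27-fold, 2.12 to 2.43), Cd163, the haemoglobin scavenger receptor, from 99.6 to 19.99 CPM and Cbr2 from 171 to 38.3 CPM. Pf4, a chemokine of platelets and macrophages, fell from 1631 to 379 CPM, Igf1 from 142 to 26.8 CPM and Selenop, a selenium carrier, from 1320 to 524 CPM. Ccl24, an eosinophil attractant, fell from 109 to 4.51 CPM (24.2-fold lower, 16.8 to 35.9), with a UMI in 35.6% of sham and 2.19% of TAC members. The 1 gene that rose was Ccl8, and Fcgrt at 182 and 133 CPM and Ninj1 at 119 and 131 CPM were not past the limit. Cd209f went from 25 UMIs to 0 and Cd209g from 4 to 0, too few for the comparison.

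The rule chose members by the limited genes, so their levels inside the gate are a description only. Lyve1 was at 87.2 CPM in sham and 24.1 in TAC, Folr2 at 164 and 75.05, and Timd4 at 15.9 and 12.1, not past 1.5-fold. The higher sham levels of Lyve1 and Folr2 hold for the sums over members, while the median member of either library had 0 UMIs of each of these genes. The per-cell level of the list outside the rule, which includes Retnla, had a median of 64.6 UMIs per 10000 in sham (22.3 to 164) and 16.6 in TAC (5.87 to 56.2). The fall of this list was not measured in the members alone: its median log2 ratio was -1.50 in like barcodes with no Ccr2 UMI and -0.75 in macrophages with resident genes. At a mitochondrial limit of 5%, which left 13 sham members, the fall of Mrc1 dropped to a log2 ratio of -0.28, while the list's median stayed at -1.23.

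Retnla, which encodes a secreted protein of alternatively activated macrophages, is on the list of resident genes outside the rule. Macrophages with resident genes held less of it than members, at 1672 CPM in sham and 82.0 in TAC. Retnla was unevenly held by the members and was examined further after its values were seen. It fell from 3206 to 342 CPM (9.37-fold lower, 8.97 to 9.80). At least 1 Retnla UMI was found in 97 of 270 sham members (35.9%, 30.2 to 42.0%) and 22 of 457 TAC members (4.81%, 3.04 to 7.2%), and 10 or more UMIs in 65 and 10. After thinning the shares were 30.1% and 2.85%, against 2.27% and 0.488% of fibroblast-like barcodes. The share of members with the gene was lower in TAC, while the 22 TAC members that carried it still held 5451 CPM of it, against 7912 CPM in the 97 sham members.

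Some genes differed between members with and without Retnla in the same direction in both libraries, and others did not. Fn1, encoding the matrix protein fibronectin, was at 411 CPM with and 182 CPM without Retnla in sham and at 247 and 14.6 CPM in TAC. Mmp12, macrophage elastase, was at 404 and 117.8 CPM in sham and 251 and 57.8 CPM in TAC, and the ribonuclease gene Ear2 at 214 and 10.9 CPM in sham and 108 and 6.31 CPM in TAC. Ly6c2 and Plac8, genes of classical monocytes, went the other way: Ly6c2 was at 0.80 CPM with and 79.6 CPM without Retnla in sham and 11.2 and 242 CPM in TAC. Plac8 was at 15.2 and 279 CPM in sham and 31.4 and 723 CPM in TAC. H2-Ab1 was higher with Retnla in sham, at 7726 and 6309 CPM, and lower with it in TAC, at 8624 and 9172 CPM. Members with Retnla were deeper, with medians of 11461 against 8777 UMIs in sham and 19220 against 14205 in TAC.

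Fn1, Mmp12 and Ear2 were also lower over the TAC members as a whole. Fn1 fell from 275 to 29.1 CPM (9.42-fold lower, 8.09 to 11.02), with a UMI in 26.3% and 7.44% of members. Mmp12 fell from 234 to 70.0 CPM and Ear2 from 93.1 to 12.7 CPM. Without the members that carried Retnla the log2 ratio of Fn1 was -3.64, that of Mmp12 -1.03 and that of Ear2 -0.81, against -3.23, -1.74 and -2.87 over all members.

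**Figure D3:**
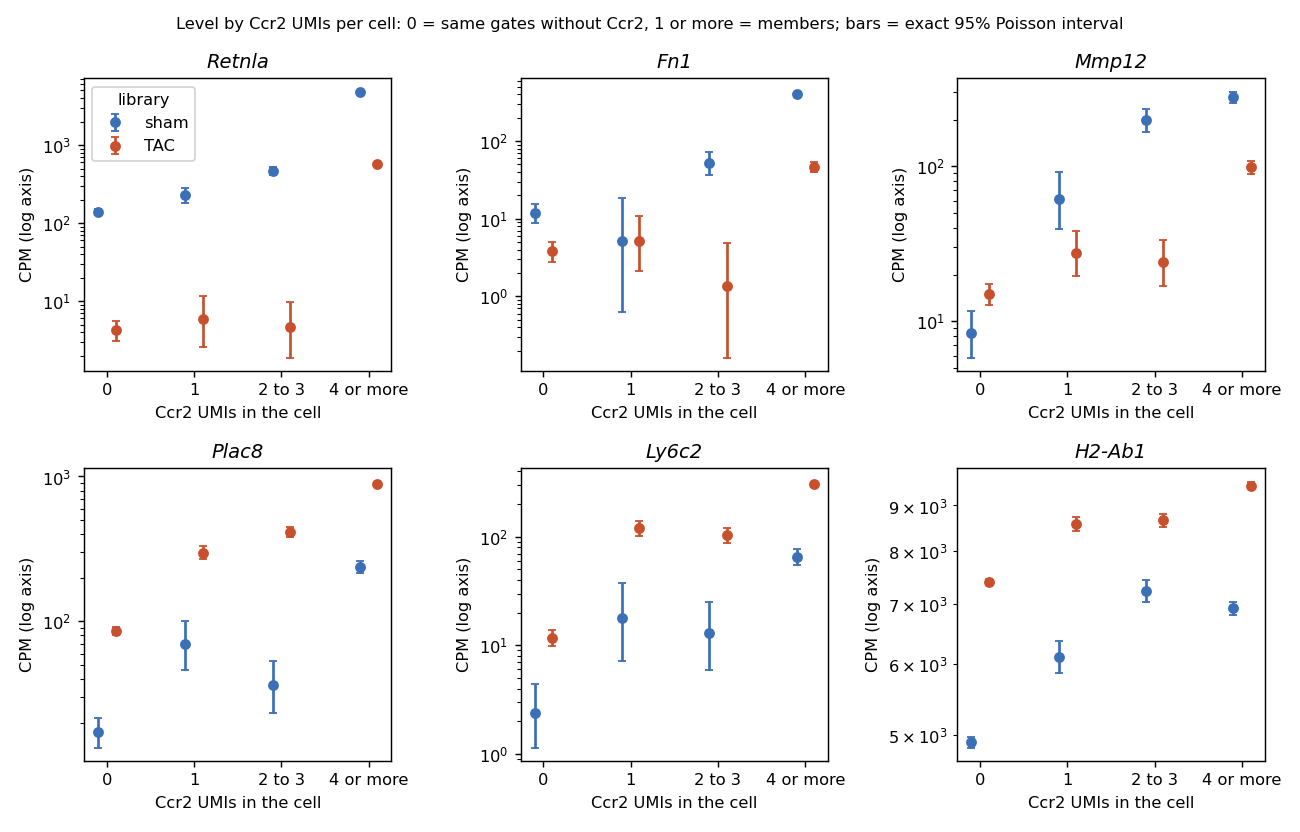
Each panel shows the level of 1 gene (CPM, log axis) in barcodes grouped by their number of Ccr2 UMIs on the x axis, where 0 stands for barcodes that met every other gate and 1 or more for members, with exact 95% Poisson bars. Retnla reached 4721 CPM in sham members with 4 or more Ccr2 UMIs and 227 CPM in those with 1, and in TAC 564 against 5.98 CPM, while H2-Ab1 lay between 6100.1 and 7229 CPM in sham members and 8589 and 9473 CPM in TAC members.

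Retnla, Fn1 and Mmp12 were held mostly by the members with the most Ccr2 RNA. Sham members with 1, 2 to 3 and 4 or more Ccr2 UMIs held 227, 464 and 4721 CPM of Retnla, and TAC members held 5.98, 4.72 and 564 CPM. Fn1 was at 5.16, 52.3 and 403 CPM in sham and at 5.23, 1.35 and 46.2 CPM in TAC. Plac8 was at 69.6, 36.3 and 238 CPM in sham and 298, 413 and 891 CPM in TAC. H2-Ab1, at 6100.1, 7229 and 6916 CPM in sham, did not follow the order of Ccr2 there, and in TAC it was at 8589, 8666 and 9473 CPM, in that order. The cells with 4 or more Ccr2 UMIs were deeper, with medians of 11079.5 UMIs in sham and 15966 in TAC, against 7781.5 and 11820 for those with 1, and the part of depth was not tested.

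Genes of classical monocytes moved in both directions. Of 16 tested, 7 rose and 2 fell, with a median log2 ratio of 0.01 and summed levels of 3486 CPM in sham and 3498 in TAC. Ly6c2, the surface antigen that defines classical monocytes, rose from 47.7 to 227 CPM (4.77-fold, 4.03 to 5.69), Plac8 from 172 to 680 CPM (3.96-fold) and Ms4a4c from 70.7 to 371 CPM (5.24-fold). Chil3 rose from 69.1 to 121 CPM and Clec4e, a sensor of damaged cells, from 57.7 to 109 CPM. Fn1 and S100a4 fell, the latter from 982 to 432 CPM. Vcan at 18.8 and 17.3 CPM, Hp at 47.3 and 39.1 CPM, Thbs1 at 97.3 and 93.5 CPM and S100a6 at 1350 and 1008 CPM were not past the limit. The same list had medians of 1.15 in like barcodes with no Ccr2 UMI and 1.25 in macrophages with resident genes.

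Ly6c2 and Chil3 were held by few members, whereas S100a4 was widely held. The 5% of members with the most held 85.7% of the Ly6c2 UMIs in sham and 68.5% in TAC, 93.4% and 87.9% of those of Chil3, and 27.8% and 36.7% of those of S100a4. With members holding 3 or more UMIs of other cell types' markers left out, the log2 ratio of Ly6c2 turned from 2.25 to -0.78, that of Plac8 from 1.98 to -0.36 and that of Chil3 from 0.80 to -0.99. In members of 8000 to 16000 UMIs, Plac8 turned to -0.27 and Chil3 to -2.14, and in members of 4 to 8% mitochondrial UMIs Chil3 turned to -0.21. Thinned, Ly6c2 was found in 4.83% of sham and 14.3% of TAC members and in none of the 176 sham and 205 TAC fibroblast-like barcodes. Plac8 was found in 9.67% and 19.7% of members and 1.14% and 18.5% of fibroblast-like barcodes. Its share in TAC members was thus close to that in TAC fibroblast-like barcodes, but its level was not. Plac8 was at 680 CPM in TAC members and 161 CPM in TAC fibroblast-like barcodes, and at 172 and 5.75 CPM in sham. The 5% of TAC members with the most held 68.3% of its TAC UMIs.

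MHC class II genes were high in the members of both libraries, and of 12 tested genes 2 rose past 1.5-fold and 2 fell. Over all tested genes, 12.7% rose and 16.1% fell. The summed level of the list was 40257 CPM in sham and 53035 CPM in TAC. Cd74, the invariant chain, was at 16052 and 21282 CPM (1.33-fold, 1.31 to 1.34) and H2-Ab1 at 6883 and 9138 CPM (1.33-fold, 1.31 to 1.35), both under the 1.5-fold limit. Ctss, the protease that trims the invariant chain, rose from 1320 to 3408 CPM and H2-DMb1, part of the peptide loader, from 556 to 886 CPM. Cd80, a T cell costimulator, fell from 18.5 to 7.60 CPM and H2-Ob from 15.6 to 9.15 CPM. Ciita, the class II transactivator, was at 123 and 107 CPM. Thinned, H2-Ab1 was found in 95.9% of sham and 99.8% of TAC members, against 13.1% and 24.4% of fibroblast-like barcodes.

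**Figure D4:**
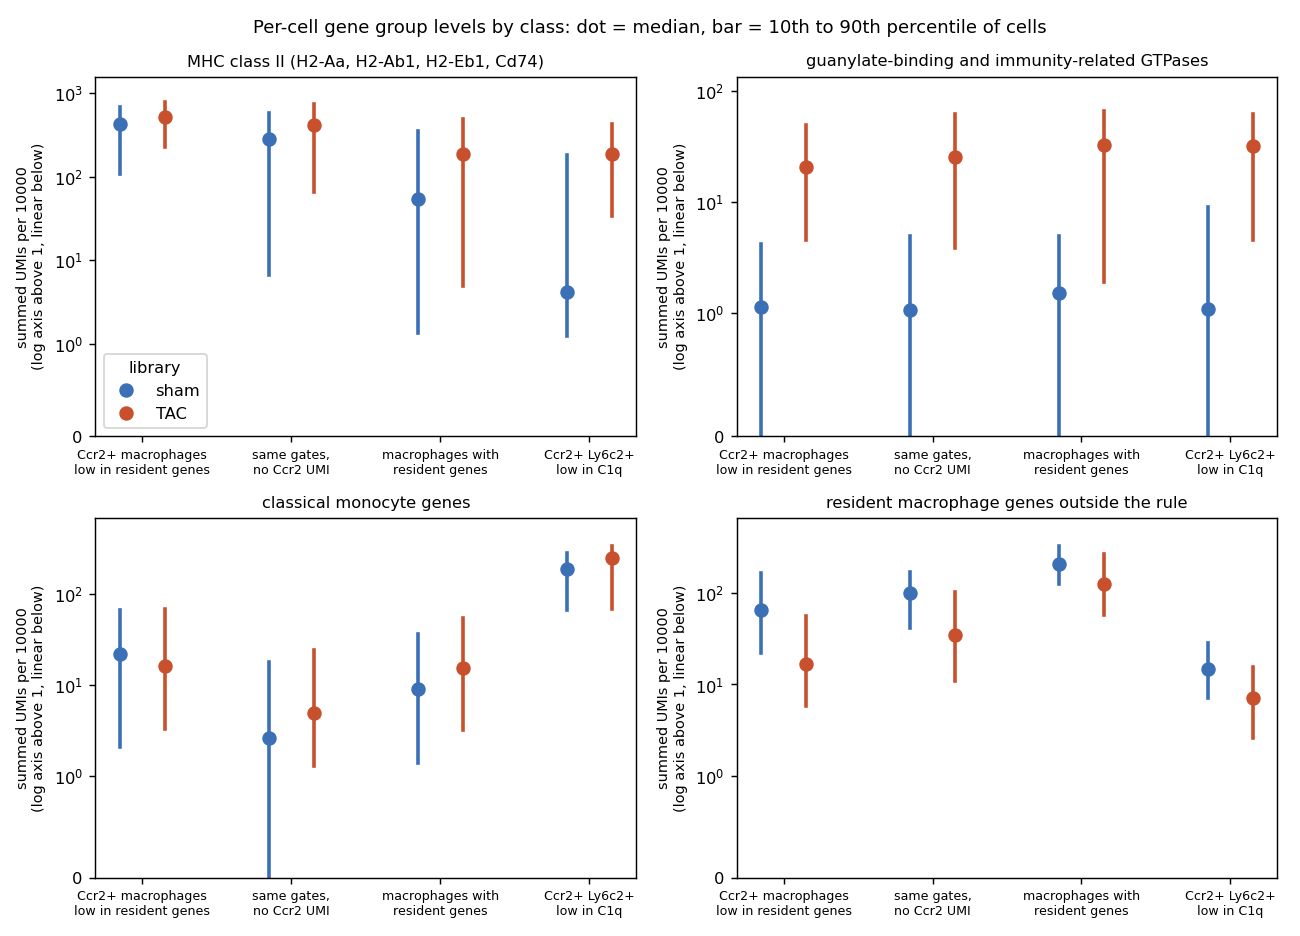
Each panel shows the summed level of 1 gene group per cell (UMIs per 10000, log axis above 1 and linear below) in the members and 3 other classes on the x axis, with a dot for the median cell and a bar from the 10th to the 90th percentile, sham and TAC side by side. Class II is highest in the members of both libraries, with medians of 431 and 511, and the GTPase group is higher in TAC in all 4 classes.

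The level of class II genes per cell differed between the classes. The 4 main genes, H2-Aa, H2-Ab1, H2-Eb1 and Cd74, summed to a median of 431 UMIs per 10000 in sham members (107 to 676) and 511 in TAC members (224 to 775). Macrophages with resident genes had medians of 54.6 and 187, like barcodes with no Ccr2 UMI 282 and 418, and Ccr2-positive Ly6c2-positive barcodes low in C1q 4.17 and 186. The medians of the other 3 classes were thus all below those of the members.

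Against macrophages with resident genes, 410 of 9522 tested genes (4.31%) were at least 1.5-fold higher and 720 (7.56%) lower in the members of both libraries. Class II genes were higher for 11 of 13 in sham and 9 of 13 in TAC, against 7.53% and 7.08% of all tested genes, and monocyte genes for 14 and 8 of 15. Tnip3, a restraint on NF-kB signalling, was 17.7-fold higher in sham and 13.7-fold in TAC, and Fabp5, a fatty acid carrier, 8.20-fold and 10.1-fold. Spp1, which encodes osteopontin, was 15.8-fold and 6.80-fold higher, Mmp12 20.3-fold and 6.97-fold, and Il1b, the proinflammatory cytokine, 5.72-fold and 5.90-fold. Resident genes outside the rule were lower for 21 of 22 in each library, against 14.2% and 14.5% of all tested genes. Cxcl13, a B cell attractant, was 42.1-fold lower in sham and 20.6-fold in TAC, Vsig4, a complement receptor, 10.7-fold and 59.2-fold, and Fcna 13.1-fold and 84.2-fold.

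Against barcodes that met every gate but had no Ccr2 UMI, fewer genes differed. Of 7888 tested, 142 (1.8%) were higher and 218 (2.76%) lower in both libraries. Monocyte genes were higher for 13 of 15 in each library, against 5.46% of tested genes in sham and 2.87% in TAC, and resident genes were lower for 18 and 15 of 21, against 7.57% and 5.13%. Retnla was 23.0-fold higher in sham members and 81.0-fold in TAC members, Plac8 9.97-fold and 7.96-fold, and S100a4 5.51-fold and 3.26-fold. The adhesion-associated gene Emb was 7.57-fold and 5.28-fold higher. The CCR2 ligands went the other way, with 3 of 4 lower in each library. A barcode with no Ccr2 UMI may still have expressed the gene, and these barcodes were shallower, with medians of 7191 UMIs in sham and 11700.5 in TAC.

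The Ccr2-positive Ly6c2-positive barcodes low in C1q, the nearest to monocytes here, numbered 42 in sham and 175 in TAC. Of 5732 tested genes, members were at least 1.5-fold higher in both libraries for 494 (8.62%) and lower for 434 (7.57%). Ly6c2 entered the choice of these barcodes and is left out of the count. Of the other 15 monocyte genes, members had lower levels of 14 in sham and 13 in TAC, against 17.3% and 13.8% of tested genes. Members had higher levels of 16 of 18 resident genes and 4 of 4 CCR2 ligands in each library, against 20.2% of tested genes in sham and 12.4% in TAC, and of 7 and 6 of 11 class II genes. Retnla, at 3206 CPM in sham and 342 in TAC members, was at 18.6 and 0.724 CPM in the barcodes low in C1q.

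Of 12 tested genes on the conventional dendritic cell list, 3 rose and 6 fell, with a median log2 ratio of -0.61 and summed levels of 1006 CPM in sham and 568 in TAC. Mgl2, a lectin gene that macrophages also express, made up 676 and 289 CPM of these. Xcr1, a chemokine receptor, rose from 5.84 to 11.1 CPM, Clec9a, a receptor for dead cells, from 8.76 to 16.8 CPM, and Ifi205 from 18.8 to 82.8 CPM, while Ccr7 fell from 68 UMIs to 2. Members were higher than macrophages with resident genes for 5 of 9 tested genes of the list in sham and 3 of 9 in TAC. Over all tested genes, 7.53% and 7.08% were higher. They were lower for 2 of the 9 in each library, against 14.2% and 14.5% of all tested genes. Against like barcodes with no Ccr2 UMI, 3 of 8 were higher in sham and 2 of 8 in TAC, beside 5.46% and 2.87% of all tested genes.

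Inflammatory genes rose in part. Of 22 tested, 9 rose and 3 fell, with a median log2 ratio of 0.45. Tnf rose from 164 to 299 CPM (1.82-fold, 1.65 to 2.01), Nlrp3, the inflammasome sensor, from 93.7 to 165 CPM, Ptgs2, the inducible cyclooxygenase, from 50.6 to 98.6 CPM, and Il10, an anti-inflammatory cytokine, from 5.51 to 23.9 CPM. Il1b was at 822 and 1157 CPM, 1.41-fold and under the limit. Il6 fell from 11.7 to 2.53 CPM, Il1a from 28.5 to 14.1 CPM and Ier3, an early stress response gene, from 587 to 275 CPM.

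Repair and lipid-associated genes moved in both directions, since 7 of 27 were higher, 7 were lower and the list's median was -0.07. Vegfa, the endothelial growth factor, rose from 9.40 to 34.9 CPM, Gpnmb from 15.6 to 37.9 CPM and Lgals3, which encodes galectin-3, from 904 to 1763 CPM. Spp1 rose from 88.9 to 209 CPM, but the 5% of members with the most held 91.2% of its sham and 77.8% of its TAC UMIs, and in members of 8000 to 16000 UMIs its log2 ratio turned from 1.23 to -1.01. Abca1, a cholesterol exporter, fell from 115 to 37.7 CPM and Apoe from 12981 to 7416 CPM. Arg1 fell from 11.7 to 2.96 CPM, on 36 and 21 UMIs.

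Complement and phagocytic genes had 6 of 18 higher and none lower. Cfb, factor B of the alternative complement pathway, went from 0.649 to 28.0 CPM and C4b from 31.8 to 146 CPM. Among myeloid transcription factors 3 of 18 rose and 4 fell, beside 12.7% and 16.1% of all tested genes. Irf8, a factor of the monocyte and dendritic lineage that interferon gamma induces, rose from 123 to 358 CPM. Spi1, which encodes PU.1, rose from 310 to 495 CPM. Irf4 fell from 19.5 to 4.37 CPM and Maf, a factor of resident macrophages, from 312 to 125 CPM.

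Of 20 tested genes of glycolysis and the response to hypoxia, 11 rose and 1 fell, and their median log2 ratio was 0.64. Pkm, pyruvate kinase, rose from 213 to 529 CPM, Gapdh from 946 to 1770 CPM and Ldha from 193 to 334 CPM, and Ankrd37 fell from 14.9 to 7.04 CPM. Nuclear genes of oxidative phosphorylation had 3 of 24 higher, Cox5a, Cycs and Sdhb, close to the 12.7% of all tested genes. None of them was lower, against 16.1% of all tested genes, and their median was 0.43. The 13 mitochondrial genome genes had a median of -0.80, which the mitochondrial limit of the rule touches.

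Heat-shock genes, which encode chaperones for damaged proteins, and immediate-early genes, many of which encode short-lived transcription factors, were mostly lower in TAC members. Of 13 heat-shock and chaperone genes 8 fell and none rose, with a median log2 ratio of -1.65 and summed levels of 14639 and 7926 CPM. Hspa1a, inducible HSP70, fell from 2276 to 286 CPM (7.97-fold lower, 7.58 to 8.37), Hspb1, a small heat-shock protein, from 466 to 28.4 CPM, and Dnajb1, an HSP70 cochaperone, from 483 to 53.1 CPM. The constitutive chaperones Hspa8 at 2777 and 2102 CPM and Hspa5 at 1454 and 1526 CPM were not past the limit. Hspa1a and its near copy Hspa1b, at 1260 and 98.7 CPM, share sequence and may exchange reads. Of 16 immediate-early genes 12 fell, with Klf4 from 1098 to 291 CPM and Fosb from 1225 to 397 CPM, and 1, Dusp2, rose from 54.8 to 89.3 CPM.

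The heat-shock difference was also measured in other macrophages, and in part in other cells. The list's median was -1.95 in like barcodes with no Ccr2 UMI and -1.66 in macrophages with resident genes. Fibroblast-like barcodes had 784 CPM of Hspa1a in sham and 201 in TAC. Their Hspb1 went from 1996 to 1498 CPM, under the 1.5-fold limit, and their summed list from 13116 to 10422 CPM. In Ccr2-positive Ly6c2-positive barcodes low in C1q, Hspa1a went from 824 to 84.7 CPM, Hspb1 from 39.6 to 30.4 CPM and the summed list from 8389 to 7067 CPM. Thinned, 89.6% of sham and 34.0% of TAC members had an Hspa1a UMI, against 64.2% and 29.8% of fibroblast-like barcodes. The cause of the difference was not tested.

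**Figure D5:**
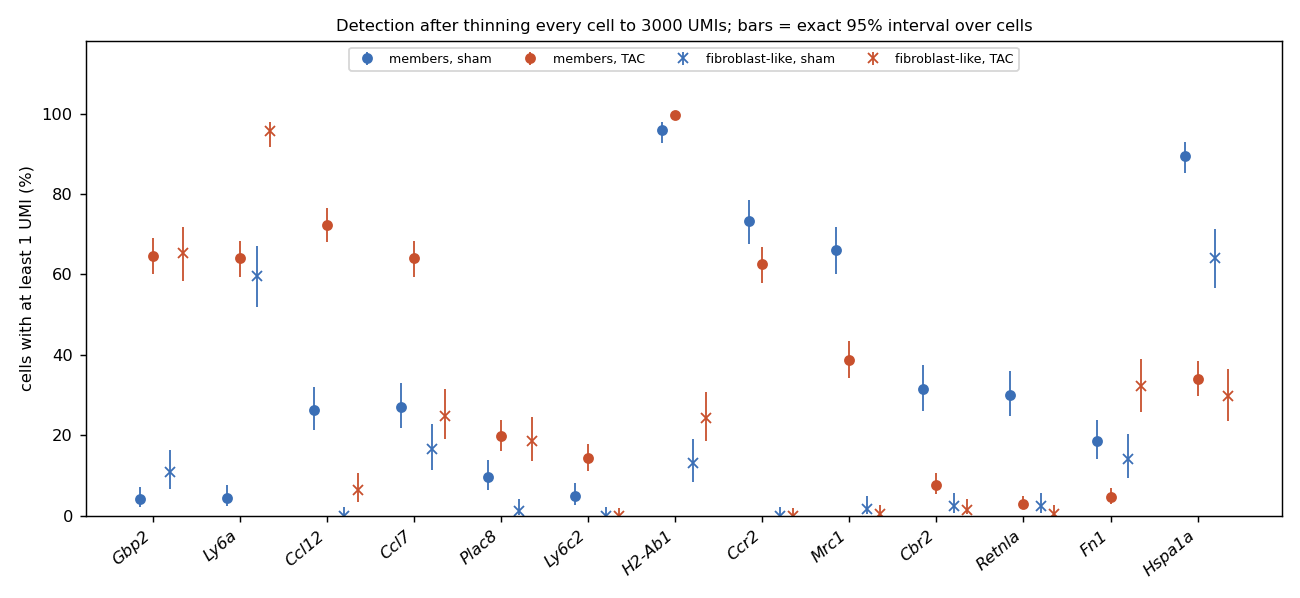
The share of cells with at least 1 UMI (percent, y axis) after thinning each cell to 3000 UMIs is shown for 13 genes on the x axis, with circles for members, crosses for fibroblast-like barcodes and exact 95% bars. Gbp2 goes from 4.09 to 64.7% of members and Retnla from 30.1 to 2.85%, while Gbp2 in fibroblast-like barcodes goes from 10.8 to 65.4%.

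The remaining genes of the lowest 15 were Hspa1b, Lyz1, Plxnd1, Fam71a, Fxyd2 and Gzma beside those above. Lyz1, a lysozyme gene whose reads may be shared with Lyz2, fell from 411 to 45.9 CPM and Plxnd1, a semaphorin receptor, from 73.0 to 11.5 CPM. Gzma, a granzyme of cytotoxic lymphocytes, fell from 88.5 to 16.2 CPM. Its sham UMIs all lay in the 5% of members with the most, its share of members with a UMI went from 2.96 to 8.32%, and with cells thinned to 5000 UMIs before the gates its log2 ratio turned to 0.76, so no direction is read for it.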

How the data were processed

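The deposited files hold raw UMI counts per gene and barcode for 31053 features in 1 sham and 1 TAC library, made by the authors with Cell Ranger 3.0 on mm10, per the submitters' processing notes. The sham library held 87532984 UMIs and the TAC library 97983083. The rule was applied to each barcode, doublets were not removed, and counts were summed over the members of each library. CPM are UMIs per 1000000 summed UMIs of the class. Ratios carry exact intervals conditional on both counts, and shares Clopper-Pearson intervals, all at 95%. A gene was tested with at least 50 UMIs over both libraries and called past 1.5-fold. Named genes were the 15 highest and 15 lowest ratios with at least 50 CPM in either library, up to 2 at each end of each list, the 10 highest and lowest against like barcodes, and genes of the rule and lists; genes described for their spread over cells were picked from their values. The members and lists were chosen with earlier results of these data known. Ifi30, Mx2 and Clec7a were not analysed here. Sequences are from RefSeq. The calculation was tested on simulated data. The scripts ran under Python 3.11.15 with pandas 2.3.3, numpy 2.4.6, matplotlib 3.10.9 and scipy 1.17.1.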

Additional observations from a re-analysis of the deposited data

Results flagged for a closer look

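Several genes moved past 1.5-fold in opposite directions in the members and in another class, and in each case the difference was not tested. Ccl22 had a log2 ratio of TAC over sham of -2.79 in members and 1.51 in like barcodes with no Ccr2 UMI, where it rested on 4 sham and 36 TAC UMIs. Cxcl3 was at -0.71 in members, 1.56 in like barcodes with no Ccr2 UMI and 0.94 in macrophages with resident genes. Mmp12 was at -1.74 in members and 0.82 in like barcodes with no Ccr2 UMI. Arg1 was at -1.97 in members and 1.67 in macrophages with resident genes, on 9 and 21 UMIs in the latter. Ecm1 was at -0.68 in members and 0.60 in macrophages with resident genes, and Dusp2 at 0.70 and -0.64.

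Barcodes above the mitochondrial limit, at 10 to 25%, also held cells that met every other gate: 305 of 4966 in sham (6.14%, 5.49 to 6.85%) and 66 of 1067 in TAC (6.19%, 4.82 to 7.80%). They were not used above. In them Gbp2 was at 21.5 CPM in sham and 303 in TAC, Ly6a at 22.5 and 925, Retnla at 1005 and 107, and Hspa1a at 2663 and 504, the same directions as in the members.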

How the results depend on the processing

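No paired analysis was possible because each group is 1 library. The log2 ratio of the member share of kept barcodes was 0.33; it turned to -0.34 at a mitochondrial limit of 5% and to -0.60 without members holding 3 or more UMIs of another cell's markers, and moved to 0.57 with C1q of at least 80 per 10000 and 0.90 without members holding a Retnla UMI. The member share of macrophages, at 1.03, turned to -0.13, and moved to 0.10 and 1.60, under the first, second and last of these. The 1078 genes at least 1.5-fold higher in TAC members became 2219 with no filter on low counts and 418 with the interval wholly past 1.5-fold. The 1366 genes at least 1.5-fold lower became 4465 and 472, 647 with cells thinned to 5000 UMIs, 475 without members holding other cells' markers and 861 in members of 8000 to 16000 UMIs. Thinning and leaving out other cells' markers moved the split to 924 higher against 647 lower and 771 against 475, and a total without mitochondrial and ribosomal genes to 906 against 1605. The causes were not tested.

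Single genes were rerun only for the 15 highest and 15 lowest ratios and a further picked set, so many genes named above were not checked. Of those rerun and past 1.5-fold, Gzma turned to 0.76 after thinning. Ly6c2, Plac8 and Chil3 turned to -0.78, -0.36 and -0.99 without members holding other cells' markers. Plac8, Chil3 and Spp1 turned to -0.27, -2.14 and -1.01 in members of 8000 to 16000 UMIs. Chil3 also turned to -0.21 in members of 4 to 8% mitochondrial UMIs. In 18 of 18 alternatives the list medians stayed past 1.5-fold for the GTPases (3.25 to 4.16), other interferon-stimulated genes (1.41 to 2.29), CCR2 ligands (2.20 to 3.99), chemokines (0.74 to 1.23), resident genes (-1.88 to -1.23) and heat-shock genes (-1.75 to -1.32). Other list medians past 1.5-fold did not stay so throughout, although their direction held in 18 of 18. That of conventional dendritic cell genes stayed past it in 10 (-0.85 to -0.08). Glycolysis and hypoxia stayed past it in 13 (0.30 to 1.01) and immediate-early genes in 16 (-0.91 to -0.50). The monocyte list ranged from -0.78 to 0.62. The alternatives on depth (8000 to 16000 UMIs), mitochondrial share (4 to 8%) and Retnla were chosen after seeing the data. With 1 library a group, no value here measures the spread between mice.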
